A study of Mus musculus with 2 samples.

Results

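T cells and natural killer (NK) cells were examined in sc-RNA-seq data of bone marrow from femur and tibia of 2-month-old mice. They made up 91 of 2478 cells, with 59 of 1309 in the Col1a1fspKO library and 32 of 1169 in the WT library. Col1a1fspKO mice carried the Fsp1-Cre transgene together with Col1a1flox/flox. WT mice were Fsp1-Cre-negative littermates that carried the same floxed Col1a1 alleles. Fsp1-Cre is driven by the promoter of S100a4 (Fsp1), a gene used as a fibroblast marker and also expressed in blood cells. Each genotype was 1 library made from a pool of 2 mice, so every interval given here covers the counting of cells or of unique molecular identifiers (UMIs, 1 per captured transcript) and not the difference between mice. Genotype, mouse pool and library cannot be told apart, and no test between the genotypes was possible.

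The cells were chosen by their UMI counts of 8 genes. The sum of Cd3g, Cd3e, Ncr1, Klrd1 and Il2rb had to reach 2 UMIs, and cells with 3 or more UMIs of Cd79a or Siglech, or with any Csf1r UMI, were left out. A cell was counted as a T cell with at least 1 UMI of Cd3g or Cd3e, and as an NK cell with none of these and at least 1 UMI of Ncr1 or Klrd1. Every one of the 91 cells fell into 1 of these subsets, giving 65 T cells and 26 NK cells. The levels of the 8 genes are therefore a description of the choice and not a result. Near the limit, 2 Col1a1fspKO cells and 0 WT cells entered with a sum of exactly 2 UMIs, while 20 and 11 cells with a sum of 1 UMI stayed outside. Of the 5 Col1a1fspKO and 2 WT cells that entered with a sum of 2 or 3, 3 and 2 held Ccl5 UMIs. Among the cells just outside, 1 Col1a1fspKO cell and 0 WT cells did.

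T cells recognise peptides through the T cell receptor, which signals through the CD3 chains and the kinase Lck. CD4 and CD8 are its coreceptors. NK cells lack this receptor and read a balance of activating and inhibitory receptors of the Klr families and Ncr1 (NKp46), and they kill target cells with granzymes and perforin. Bone marrow is a site where NK cells mature and a reservoir of memory T cells, many of which share chemokines, granule proteins and NK receptors with NK cells.

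Library facts that bear on these cells were as follows. T cells held 2636 to 15661 UMIs in Col1a1fspKO (median 4085) and 3042 to 13130 in WT (median 4007.5). NK cells were deeper, with medians of 6459.5 and 8854 UMIs. The class sums were 302280 UMIs over the 59 Col1a1fspKO cells and 181387 over the 32 WT cells. B-lineage cells, taken as cells with at least 3 Cd79a UMIs and none of the 5 inclusion genes, served as the background for free RNA (234 and 216 cells, median depth 4558 and 5722 UMIs). Hbb-bs, an adult globin gene, gave UMIs in every T and NK cell and in every B-lineage cell, and S100a8 in every T and NK cell and in 98.3% and 99.1% of B-lineage cells, so a low count of these genes is at the background level. The libraries shared 2 cell barcodes, none of them of a T or NK cell. The whole Col1a1fspKO library held 3 UMIs of Col1a1, a gene not listed for WT, so the deletion could not be checked in these cells.

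Of the T and NK cells, 3 stood apart by neutrophil RNA. They held 2808, 2110 and 2007 UMIs of S100a8 and S100a9, the calprotectin genes of neutrophils, whereas the other T and NK cells held at most 41 in Col1a1fspKO and 37 in WT. The first was a Col1a1fspKO T cell with a sum of 1 UMI of Cd3g and Cd3e, 2 UMIs of Ncr1, 3 of Klrd1 and 11 of Gzma, and the others were WT NK cells. Since 2 of the 8 WT NK cells were of this kind, results are given with and without these 3 cells where a call changes or a value moves by over 1.5 times. Whether they were doublets was not tested beyond Scrublet, a doublet caller, which called none of them.

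**Figure D1:**
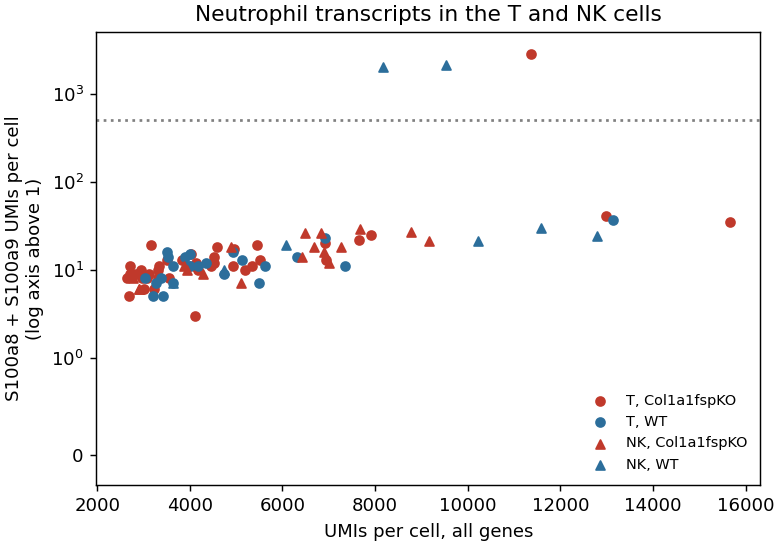
UMIs of S100a8 plus S100a9 per cell (log axis above 1) against the UMIs of all genes, for each T cell (circle) and NK cell (triangle) of Col1a1fspKO (red) and WT (blue). The dotted line marks 500 UMIs, and 3 cells lie above it at 2007 to 2808 UMIs.

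T and NK cells took a larger share of the Col1a1fspKO library than of the WT library. They were 4.51% of Col1a1fspKO cells (exact Clopper-Pearson 95% interval 3.45% to 5.78%) and 2.74% of WT cells (1.88% to 3.84%). The difference was 1.77 percentage points (Newcombe 95% interval 0.284 to 3.26). With only the cells of at least 2909 UMIs, the lowest depth of a WT cell, the difference was 1.68 points (0.166 to 3.24). A share of cells cannot tell more T and NK cells from fewer cells of other types.

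Both subsets were larger in Col1a1fspKO, and with all cells neither difference alone had an interval above 0. T cells were 41 cells or 3.13% in Col1a1fspKO and 24 cells or 2.05% in WT, a difference of 1.08 points (-0.198 to 2.36). NK cells were 18 cells or 1.38% and 8 cells or 0.684%, a difference of 0.691 points (-0.140 to 1.55). The NK interval cleared 0 under 2 alternatives. Without the 3 cells rich in neutrophil RNA the NK difference was 0.862 points (0.0770 to 1.70), and with every cell thinned to 2500 UMIs it was 0.938 points (0.143 to 1.79). NK cells were 30.5% of the Col1a1fspKO T and NK cells (19.2% to 43.9%) and 25% of those of WT (11.5% to 43.4%), a difference of 5.51 points (-14.4 to 22.8) that was not detectable at these cell numbers.

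**Figure D2:**
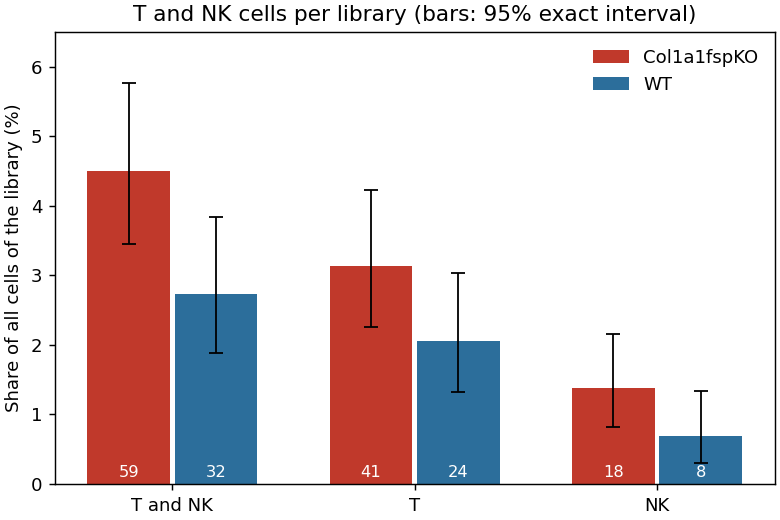
Share of all cells of each library (in %) taken by T and NK cells together, by T cells and by NK cells, with exact 95% intervals and the number of cells in each bar. The 59 Col1a1fspKO cells are 4.51% and the 32 WT cells 2.74%.

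The label was checked against genes that had no part in the choice. Cd3d, a further CD3 chain, had UMIs in 37 of 41 Col1a1fspKO T cells and 22 of 24 WT T cells, in 2 of 18 and 3 of 8 NK cells, and in 4.70% and 5.56% of B-lineage cells. Ccl5, a chemokine of memory T and NK cells, had UMIs in 32 of 41 and 18 of 24 T cells and in 16 of 18 and 7 of 8 NK cells, against 1.71% and 1.39% of B-lineage cells. Gzma, granzyme A, was present in 13 of 18 and 8 of 8 NK cells and in 8 of 41 and 5 of 24 T cells, against 0.427% and 0.926% of B-lineage cells. Cd3d, Ccl5 and, in NK cells, Gzma were thus far above their shares in B-lineage cells. Cd3d was not specific to the T and NK cells, which held 175 of its 709 Col1a1fspKO UMIs and 102 of its 517 WT UMIs. Trac, Trbc1, Trbc2 and Trdc, which code for constant regions of the T cell receptor, were listed for neither library, so alpha beta and gamma delta T cells could not be told apart.

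Relative to all other marrow cells, the T and NK cells held nearly all UMIs of a small set of lymphocyte genes. Outside the 8 genes of the choice, 224 of 1836 genes with at least 30 UMIs were at least 2-fold higher in T and NK cells in both libraries (12.2%). These 30 UMIs were counted in the T and NK cells, so genes high in them passed more easily. The 10 highest by the smaller of both ratios were Gzma, Klrc1, Xcl1, Klri2, Klra3, Klre1, Ccl5, Klra7, Bcl11b and Sh2d1a. Klrc1 (NKG2A, an inhibitory receptor) had 99.1% of its Col1a1fspKO UMIs and 95.1% of its WT UMIs in these cells, and Xcl1, a chemokine for cross-presenting dendritic cells, 94.96% and 100%. Gzma had 98.1% and 97.7%, and Ccl5 93.6% and 96.9%. Sh2d1a, the adaptor of SLAM family receptors, had 91.2% and 97.8%. Because the cells were chosen for genes of the same lineages, these values describe them and were not tested.

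Most T cells showed no coreceptor UMI. CD8 UMIs (Cd8a or Cd8b1) without Cd4 were found in 9 of 41 Col1a1fspKO T cells (21.95%, 10.6% to 37.6%) and in 5 of 24 WT T cells (20.8%, 7.13% to 42.2%). Cd4 UMIs without CD8 were found in 0 of 41 Col1a1fspKO T cells, with an exact upper bound of 8.604% for cells with a Cd4 UMI, and in 3 of 24 WT T cells (12.5%, 2.66% to 32.4%). The difference of -12.5 points had an interval of -31.0 to -0.672. With each cell thinned to 2500 UMIs, Cd4 was left in 1 of 24 WT T cells, and the difference of -4.17 points (-20.2 to 5.06) no longer cleared 0. Neither coreceptor was found in 32 of 41 and 16 of 24 T cells, and no T cell held both. In the WT library Cd4 rested on 5 UMIs, so an absent UMI is weak evidence of an absent coreceptor. No NK cell of either library held a UMI of Cd4, Cd8a or Cd8b1.

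NK receptors were common among the T cells of both libraries. At least 1 UMI of Ncr1 or Klrd1 was present in 25 of 41 Col1a1fspKO T cells (61.0%) and 18 of 24 WT T cells (75%). The genes were used in the choice of cells, so receptors outside it were counted separately. That count is not free of the choice, as a cell with 1 UMI of Cd3g or Cd3e entered only with Ncr1, Klrd1 or Il2rb. In this way 4 Col1a1fspKO and 1 WT T cells entered, while 7 and 5 cells with that UMI alone stayed outside. Klrk1 (NKG2D, an activating receptor), Klrb1c (NK1.1), Klrc1, Klrc2, Klre1 or a Klra gene of the Ly49 family had a UMI in 26 of 41 T cells (63.4%, 46.9% to 77.9%) and in 18 of 24 (75%, 53.3% to 90.2%). The difference of -11.6 points between the libraries had an interval of -31.7 to 12.2. Klrk1 alone had UMIs in 18 of 41 and 11 of 24 T cells and in no B-lineage cell. Ncr1 was found in 7 T cells of each library, of which 3 in Col1a1fspKO and 1 in WT rested their place among T cells on 1 UMI of Cd3g or Cd3e. Klra genes are near-identical copies, and reads may be split between them.

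Ccl5 was abundant in most T cells and not found in others. Per T cell the Ccl5 count ran from 0 to 226 UMIs in Col1a1fspKO with a median of 43, and from 0 to 115 in WT with a median of 21. At least 10 Ccl5 UMIs were held by 27 of 41 T cells (65.9%) and 15 of 24 (62.5%), and 9 and 6 T cells held none. Among the T cells without coreceptor UMIs, 21 of 32 and 13 of 16 were in the group with at least 10. Every Gzma-positive T cell, 8 in Col1a1fspKO and 5 in WT, held at least 10 Ccl5 UMIs and at least 1 UMI of Ncr1 or Klrd1. A UMI of Tcf7, Lef1 or Bcl11b, transcription factors of T cell identity and of naive and memory T cells, was held by 25 of 41 and 20 of 24 T cells, 16 and 11 of which also held at least 10 Ccl5 UMIs. Lef1 alone did not set T cells apart, with UMIs in 31.7% and 41.7% of T cells and in 32.5% and 32.4% of B-lineage cells. A UMI of Tcf7 or Bcl11b was held by 21 of 41 and 17 of 24 T cells, against 1.28% and 1.39% of B-lineage cells.

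Markers of other T cell types were sparse. Foxp3, the transcription factor of regulatory T cells, had 9 UMIs in 3 Col1a1fspKO T cells and was not listed for WT. Of these, 7 UMIs came from 1 T cell, which at 15661 UMIs was the deepest and also held 30 UMIs of Gzmb (granzyme B) and 19 of Ccl5. Dapl1, a gene of naive and memory T cells, was the reverse, with 12 UMIs in 3 WT T cells and no entry for Col1a1fspKO. Il7r (the interleukin-7 receptor) had UMIs in 6 of 41 and 6 of 24 T cells, below its share in B-lineage cells (41.9% and 41.7%), which express it as precursors.

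NK cells held 2 to 23 UMIs of Ncr1 plus Klrd1 in Col1a1fspKO (median 8.5) and 3 to 18 in WT (median 7.5). Gzma ran from 0 to 113 UMIs per NK cell in Col1a1fspKO with a median of 21, and from 3 to 95 in WT with a median of 9.5. Tyrobp, the adaptor DAP12 of activating NK receptors, was present in every NK cell, with medians of 14.5 and 16.5 UMIs. In T cells Tyrobp had medians of 0 and 0.5 UMIs, with shares of 36.6% and 50%, beside 50% and 44.4% of B-lineage cells. With each cell thinned to 2500 UMIs, the shares were 29.3% and 37.5% of T cells and 31.6% and 22.2% of B-lineage cells. Single cells reached 25 and 28 UMIs among T cells and 46 and 35 among B-lineage cells. Gzma-positive T cells of WT held 28, 16, 18, 8 and 0 Tyrobp UMIs. Those of Col1a1fspKO held 0, 25, 1, 4, 15, 12, 0 and 0, with the 25 in the cell rich in neutrophil RNA. The ranges of the libraries overlapped for each of these genes. Prf1 (perforin) had 3 UMIs in Col1a1fspKO T and NK cells and was not listed for WT, too few to compare.

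Of the Col1a1fspKO NK cells, 2 entered on Klrd1 alone, with 3 and 4 UMIs, and held no UMI of Ncr1, Il2rb, Ccl5 or Gzma. The first also held 2 UMIs of Siglech and 32 UMIs over a list of 8 genes of plasmacytoid dendritic cells, where the other NK cells held at most 7. Klrd1 is also expressed by plasmacytoid dendritic cells. Without these 2 cells the NK difference became 0.538 points.

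**Figure D3:**
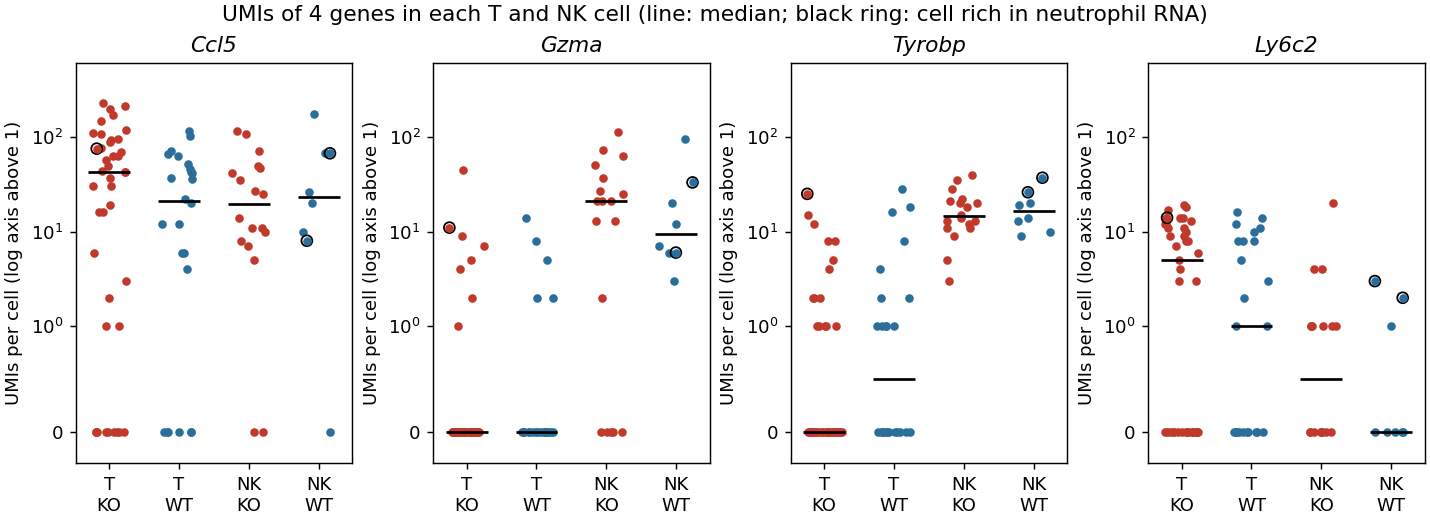
UMIs per cell (log axis above 1) of Ccl5, Gzma, Tyrobp and Ly6c2 in each T and NK cell of Col1a1fspKO (KO, red) and WT (blue), with medians as lines and the 3 cells rich in neutrophil RNA ringed. Ccl5 reaches 226 UMIs in a T cell and Gzma 113 UMIs in an NK cell, and Tyrobp is above 0 in all 26 NK cells.

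T cells were set against NK cells within each library, as counts per 1000000 UMIs of the class (CPM). Of 1836 genes with at least 30 UMIs, 47 were at least 2-fold higher in T cells in both libraries (2.56%) and 27 in NK cells (1.47%), with the genes of the choice left out. T cells held the larger class sums (198411 and 114649 UMIs against 103869 and 66738), so genes high in T cells passed this limit more easily. The 10 highest in T cells were Cd3d, Lat, Bcl11b, Klk8, Samhd1, Ifi27l2a, Kbtbd11, Chd3, Gm12840 and Ikzf2. The 10 highest in NK cells were Gzma, Ccl3, Klri2, Ptms, Plek, Serpinb6b, Car2, Arsb, Tyrobp and Lockd.

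On the T cell side the signalling genes of the receptor led. Cd3d was at 872 CPM in the T cells of Col1a1fspKO and 864 CPM in those of WT, against 19.3 and 45.0 CPM in NK cells. Lat, the scaffold that the receptor's kinases phosphorylate, was at 383 and 288 CPM against 48.1 and 29.97. Bcl11b, which maintains T cell identity, was at 151 and 235 CPM against 19.3 and 14.98. Of 8 tested genes of the receptor complex and its signalling, 5 were 2-fold higher in T cells in both libraries (Cd3d, Cd247, Lat, Lck and Cd28) and 0 in NK cells. The shares over all genes were 2.56% and 1.47%. Cd28, the costimulatory receptor, had 37 and 17 UMIs in T cells and 5 and 3 in NK cells. Without the 3 cells rich in neutrophil RNA, which leaves 6 WT NK cells, the WT log2 ratios of Lck and Cd247 were 0.85 and 0.68, below 2-fold.

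Among genes of naive T cells, 3 of 6 tested were 2-fold higher in T cells, namely Tcf7, Lef1 and Bcl11b, and 0 in NK cells. Over all genes these shares were 2.56% and 1.47%. Tcf7 fell short of 2-fold in WT without those 3 cells, at a log2 ratio of 0.89. Ly6c2 (Ly6C2, a surface antigen of memory CD8 T cells and monocytes) was at 1280 and 864 CPM in T cells and at 327 and 89.9 CPM in NK cells. Cxcr6, the receptor for CXCL16, was at 212 and 95.9 CPM in T cells, with 3 UMIs and 0 UMIs in NK cells. Cd8b1 had 39 and 11 UMIs in T cells and 0 in NK cells of both libraries, which makes it at least 6.81-fold and 2.13-fold higher in T cells at a floor of 3 UMIs per class.

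On the NK cell side Gzma led. The 10 highest also held genes outside the granule and NK receptor lists, such as Ptms, Plek, Arsb and Lockd. For Ptms, Arsb and Lockd the WT interval left the direction open. Gzma was at 4612 and 2727 CPM in NK cells against 423 and 270 CPM in T cells, a log2 ratio of T over NK of -3.45 and -3.33. Klri2, a Klr receptor, had 37 and 16 UMIs in NK cells and 4 UMIs in T cells of each library. Of 14 tested NK receptor genes, 4 were 2-fold higher in NK cells in both libraries (Klrk1, Klre1, Klrb1f and Klri2) and 0 in T cells. Over all genes, 1.47% were higher in NK cells and 2.56% in T cells. Klrk1 was at 703 and 659 CPM in NK cells and at 282 and 262 CPM in T cells. Klrc1 did not separate the subsets, with log2 ratios of 0.17 and 0.39. Of 9 tested granule genes, Gzma and Serpinb6b, an inhibitor of serine proteases, were higher in NK cells. Nkg7, a protein of cytotoxic granules, had log2 ratios of opposite sign, -0.82 in Col1a1fspKO and 0.59 in WT. Ccl5 likewise had log2 ratios of 1.05 and 0.24, below 2-fold in WT.

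**Figure D4:**
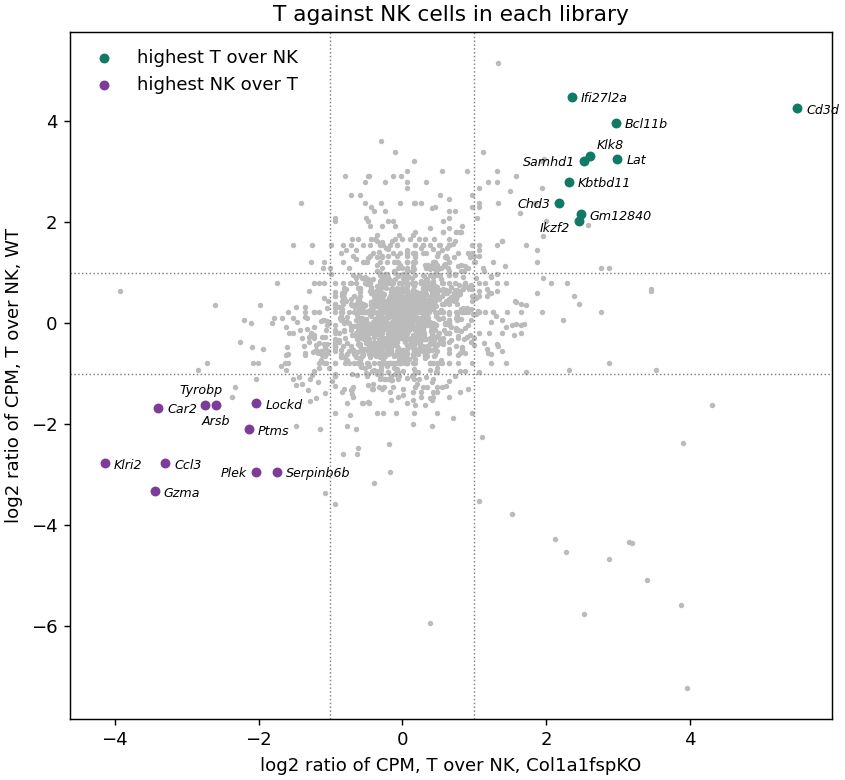
The log2 ratio of CPM of T over NK cells in Col1a1fspKO (x axis) against WT (y axis) for 1836 genes with at least 30 UMIs, with the 10 genes highest in T cells (green) and the 10 highest in NK cells (purple) named. Dotted lines mark 2-fold, and Gzma lies at -3.45 and -3.33.

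For the comparison of genotypes, UMIs were summed over the T and NK cells of each library. Of 1841 genes with at least 30 UMIs, 73 were at least 2-fold higher in Col1a1fspKO (3.97%) and 26 at least 2-fold lower (1.41%). With a ratio interval that also excluded 1, 58 (3.15%) and 25 (1.36%) did so. Without the 3 cells rich in neutrophil RNA, 1755 genes were tested, of which 71 were higher (4.05%) and 16 lower (0.912%). The median log2 ratio over all genes tested was 0.05. The limit of 30 UMIs was set on the sum of both libraries, and the Col1a1fspKO class sum was the larger (302280 against 181387 UMIs). A gene high in Col1a1fspKO thus passed more easily than one equally high in WT. The counts of higher and lower genes, here and in the lists below, are therefore no measure of direction. The intervals are from the exact binomial distribution of UMIs. They are too narrow where a few cells hold most UMIs of a gene.

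The 10 highest ratios belonged to Ly6c1, Mrps23, Plac8, Isg15, Gramd3, Ccl3, Ccnb2, Traf1, Ly6a and S100a4. Ly6c1 (Ly6C1, a surface antigen) had 89 UMIs in 23 Col1a1fspKO cells and 1 UMI in WT, a ratio of 53.4 (9.34 to 2133). It stood at 4308 and 57 UMIs in all other cells of the libraries, a ratio of 76.5, so the rest of the marrow differed in the same direction. Apobec3, a cytidine deaminase that restricts retroviruses, had 46 and 7 UMIs, a ratio of 3.94 (1.77 to 10.4), and 4.08 in all other cells. Traf1, an adaptor of TNF receptors, had 34 and 4 UMIs, a ratio of 5.10 (1.82 to 19.8), beside 3.24 in all other cells.

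Other high ratios stood beside ratios near 1 in the remaining marrow. S100a4, the gene of the Cre driver, had 54 Col1a1fspKO UMIs and 7 WT UMIs, a ratio of 4.63 (2.10 to 12.1), beside 0.916 in all other cells. Its UMIs lay in 10 of 41 T cells and 4 of 18 NK cells of Col1a1fspKO, and in 3 of 24 and 2 of 8 of WT. The log2 ratio of S100a4, 2.21, was 1.28 with a sum of at least 1 UMI and 1.35 with no cell left out. Plac8, a protein of lymphoid and myeloid cells, had 95 and 9 UMIs, a ratio of 6.33 (3.20 to 14.3), beside 1.12, and 30.5% of its Col1a1fspKO UMIs came from 1 cell. The Plac8 ratio depended on which cells were taken. From a log2 ratio of 2.66 it went to -0.30 with a sum of at least 1 UMI, to 0.16 with no cell left out for Cd79a, Siglech or Csf1r, and to 1.40 with membership by Leiden cluster. Ly6a (Sca-1) had 63 and 8 UMIs, a ratio of 4.73 (2.26 to 11.4), in 9 and 2 cells, all of them T cells. In each library 1 cell held a large part of its UMIs, 36.5% and 87.5%. With T and NK cells weighted equally the log2 ratio of Ly6a was 0.77, since its NK cells held 0 UMIs in both libraries. Mrps23, of the mitochondrial ribosome, had 37 UMIs over 28 cells and 3 UMIs over 3 cells, a ratio of 7.40 (2.34 to 37.5), beside 0.955. The log2 ratio of Mrps23, 2.89, was 1.78 with no cell left out. Whether the ratios in T and NK cells differed from those in the other cells was not tested.

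**Figure D5:**
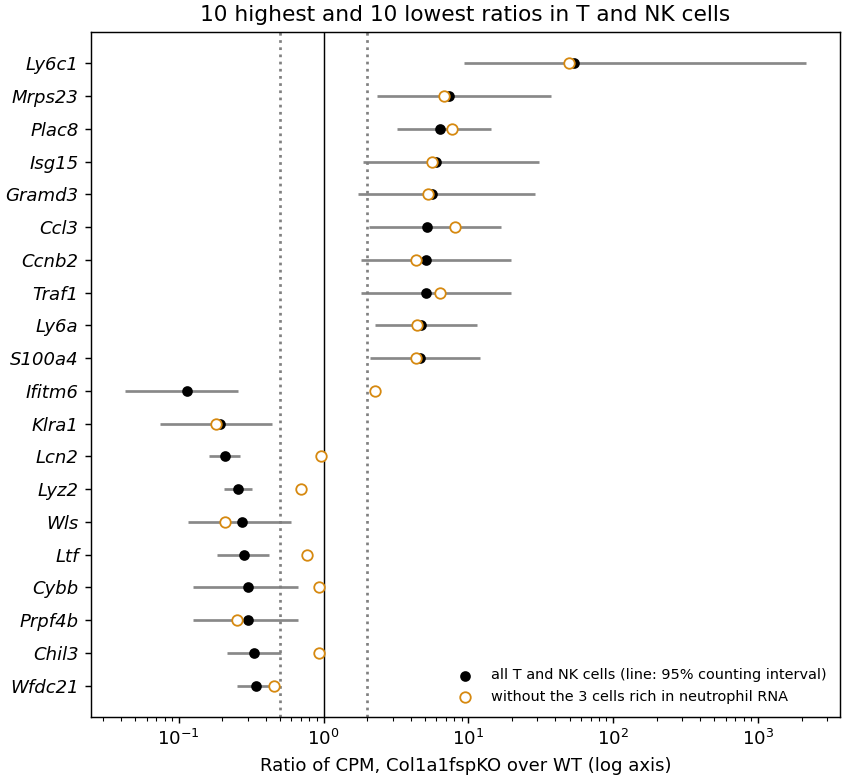
Ratio of CPM of Col1a1fspKO over WT in T and NK cells (log axis) for the 10 highest and 10 lowest genes, with 95% counting intervals and, as open circles, the ratio without the 3 cells rich in neutrophil RNA. Ly6c1 stands at 53.4, and without those cells 6 of the 10 lowest genes move towards 1, as Lcn2 does from 0.209 to 0.965, while Ifitm6 moves to 2.25. Of the 6, Wfdc21 stays at 0.457, and for Cybb, at 0.938, the 0 WT UMIs left are set to 3.

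The 10 lowest ratios were those of Ifitm6, Klra1, Lcn2, Lyz2, Wls, Ltf, Cybb, Prpf4b, Chil3 and Wfdc21. Ifitm6, Lcn2, Lyz2, Ltf, Cybb, Chil3 and Wfdc21 are genes of neutrophils and monocytes. Lcn2, a neutrophil granule protein, had 92 and 264 UMIs, a ratio of 0.209, of which 12 and 7 remained without the 3 cells above, a ratio of 0.965. Ifitm6 went from 0.114 to 2.25 on 4 and 1 UMIs. Cybb went to 0.938 on 5 and 0 UMIs, with the 0 set to 3. Klra1, Wls, Prpf4b and Wfdc21 stayed at least 2-fold lower without these cells, Wfdc21 at 0.457 on 13 and 16 UMIs. Klra1 (Ly49A, an inhibitory receptor for MHC class I) had 8 UMIs in 5 Col1a1fspKO cells and 25 UMIs in 7 WT cells, a ratio of 0.192 (0.0749 to 0.439), and 0.180 without the 3 cells. Its log2 ratio of -2.38 was -1.49 (-3.26 to 0.17) with each cell thinned to 2500 UMIs. Wls, a carrier of Wnt proteins, had 10 and 22 UMIs, a ratio of 0.273 (0.115 to 0.600), and 0.207 without the 3 cells on 7 and 19 UMIs. Prpf4b, a kinase of pre-mRNA splicing, had 10 and 20 UMIs, a ratio of 0.300 that became 0.253.

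Genes of the T cell receptor and its signalling stayed near a ratio of 1. Of 8 tested, with Cd3g and Cd3e left out since they chose the cells, 0 were past 2-fold in either direction, with a median log2 ratio of 0.05. Over all genes tested, 3.97% were past 2-fold higher and 1.41% lower, so 0 of 8 is near these shares. Cd3d had 175 and 102 UMIs, a ratio of 1.03 (0.802 to 1.33), and Lck 146 and 95, a ratio of 0.922 (0.707 to 1.21). Of 6 tested genes of naive T cells, 0 were past 2-fold, and the median was -0.54. Tcf7 had 23 UMIs in the T cells of Col1a1fspKO and 26 in those of WT, a ratio of 0.511 (0.279 to 0.932). Cd8b1 was 2.13-fold higher in Col1a1fspKO (1.07 to 4.61) on 39 and 11 UMIs in 7 and 4 cells, and -0.16 on the log2 scale once each cell was thinned to 2500 UMIs. Without the 3 cells rich in neutrophil RNA the log2 ratio of Cd8b1 was 0.996, just below 2-fold.

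NK receptors were counted in the same way. Of 14 tested outside the genes of the choice, Cd160 was past 2-fold higher (ratio 2.05, 1.06 to 4.29, on 41 and 12 UMIs) and Klra1 lower, with a median log2 ratio of -0.14. With 3.97% of all genes tested higher and 1.41% lower, 1 gene each way says little about the list. Cd160 was at 1.92 (0.991 to 4.02) without the 3 cells rich in neutrophil RNA. Klrk1 had 129 and 74 UMIs, a ratio of 1.05 (0.780 to 1.41). Klrg1, a receptor of mature NK cells and of effector T cells, had 18 UMIs over 9 Col1a1fspKO cells and was not listed for WT. Gzmk (granzyme K) had 23 UMIs over 7 Col1a1fspKO cells and Ifng 9 UMIs over 5, and neither was listed for WT, so no ratio is given.

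Ccl3 and Ccl4, inflammatory chemokines, were 2 of 4 tested chemokine genes past 2-fold higher, beside 3.97% of all genes tested. Ccl3 had 43 and 5 UMIs in 13 and 5 cells, a ratio of 5.16 (2.05 to 16.7), beside 0.927 in all other cells. Of the UMIs, 36 and 4 were in NK cells, and 1 cell held 32.6% of those of Col1a1fspKO. Without the 3 cells rich in neutrophil RNA the ratio was 8.06 on 43 and 3 UMIs. Ccl4 had 55 and 10 UMIs, a ratio of 3.30 (1.67 to 7.26). In T cells Ccl5 was at 11627 CPM against 6568 CPM for WT, a ratio of 1.77 (1.63 to 1.92), and at 5603 and 5559 CPM in NK cells, a ratio of 1.01 (0.883 to 1.15). Per T cell Ccl5 ran from 0 to 226 UMIs in Col1a1fspKO and from 0 to 115 in WT. Col1a1fspKO T cells with 118, 146, 171, 197, 213 and 226 UMIs lay above every WT T cell and weigh on the summed ratio. Per NK cell the ranges were 0 to 116 and 0 to 173 UMIs. Whether the T and NK ratios differed was not tested. Of 9 tested granule genes, Serpinb6b was past 2-fold higher (ratio 2.40, 1.22 to 5.15), beside 2.46 in all other cells. With 3.97% of all genes tested past 2-fold higher, 1 of 9 says little about the list. Gzma had 563 and 213 UMIs, a ratio of 1.59 (1.35 to 1.87), and Gzmb 74 and 29, a ratio of 1.53 (0.984 to 2.44). Nkg7 in NK cells was at 2696 and 1139 CPM, and in T cells at 1532 and 1718 CPM.

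Of 8 tested genes of memory and innate-like T cells, Cxcr6 and Cd160 were past 2-fold higher in Col1a1fspKO and 0 lower. The shares over all genes tested were 3.97% and 1.41%. Cxcr6 had 45 and 11 UMIs, a ratio of 2.45 (1.25 to 5.26), of which 42 and 11 lay in 15 of 41 and 5 of 24 T cells. The log2 ratio of Cxcr6 was 0.25 when T and NK cells were weighted equally, where 3 UMIs stand for the 0 UMIs of WT NK cells. Ly6c2 had 288 and 105 UMIs, a ratio of 1.65 (1.31 to 2.08), beside 1.28 in all other cells. Eomes, a transcription factor of NK cells and memory CD8 T cells, had UMIs in 15 of 41 and 4 of 24 T cells and in 9 of 18 and 5 of 8 NK cells.

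Of 8 tested interferon-stimulated genes, 3 were past 2-fold higher (Isg15, Bst2 and Ifi203) and 0 lower, with a median log2 ratio of 0.83. Over all genes tested the shares were 3.97% higher and 1.41% lower. Isg15, a ubiquitin-like protein, had 30 and 3 UMIs, a ratio of 6.001 (1.87 to 30.7), but 40% of the Col1a1fspKO UMIs came from 1 cell. Thinned to 2500 UMIs per cell, the log2 ratio of Isg15 was 1.68 (-0.48 to 4.89), and 0.60 with T and NK cells weighted equally. That weighting sets a class at 0 UMIs to 3 UMIs, so it is unsure for a gene with so few UMIs. Ifi203, of the DNA-sensing PYHIN family, had 90 UMIs in 40 cells and 20 UMIs in 14 cells, a ratio of 2.70 (1.65 to 4.63), beside 1.52 in all other cells. Mndal, of the same family, had 83 and 11 UMIs, a ratio of 4.53 (2.40 to 9.42), beside 2.55.

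Of 12 tested MHC class I genes, Tap1, the peptide transporter, was past 2-fold higher (30 and 6 UMIs, ratio 3, 1.23 to 8.82) and 0 were lower, with a median log2 ratio of 0.45. With 3.97% of all genes tested higher and 1.41% lower, 1 of 12 says little about the list. B2m, the light chain of MHC class I, had UMIs in every T and NK cell. Its level was 3682 CPM against 2459 CPM, a ratio of 1.497 (1.34 to 1.68), beside 1.53 (1.49 to 1.57) in all other cells. H2-K1 had a ratio of 1.39 (1.16 to 1.67), beside 1.63.

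Transcripts of dividing cells were found in few T cells and in a larger part of the NK cells. At least 3 UMIs of Mki67 and Top2a, genes of proliferating cells, were held by 2 of 41 and 1 of 24 T cells, and by 4 of 18 and 3 of 8 NK cells. These NK cells were deep, with 7005 to 9161 UMIs in Col1a1fspKO and 10222 to 12791 in WT. The median depth was 6459.5 and 8854 UMIs in all NK cells, against 4085 and 4007.5 in T cells. Whether the subsets differed in this at equal depth was not tested. Of 9 tested cell cycle genes, Ccnb2, Birc5 and Ube2c, of mitosis, were past 2-fold higher in Col1a1fspKO and 0 lower, with a median log2 ratio of 0.26. Among all genes tested, 3.97% were higher and 1.41% lower. Ccnb2 was below 2-fold once each cell was thinned to 2500 UMIs, at a log2 ratio of 0.91 (-1.49 to 4.21). Birc5 had 64 UMIs in 14 cells and 14 in 6, a ratio of 2.74 (1.52 to 5.30), and Ube2c 75 UMIs in 11 cells and 18 in 4, a ratio of 2.50 (1.48 to 4.45). Top2a, also of dividing cells, had a ratio of 0.960 (0.533 to 1.77).

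Lists of other cell types were counted in the same way. The shares over all genes tested were 3.97% past 2-fold higher and 1.41% lower. Without the 3 cells rich in neutrophil RNA they were 4.05% and 0.912%. Of 7 tested neutrophil genes, 4 were past 2-fold lower in Col1a1fspKO (S100a9, Camp, Ltf and Lcn2), and 0 of 5 without the 3 cells rich in neutrophil RNA. The 10 neutrophil genes summed to 24681 CPM in Col1a1fspKO T cells, or 3748 without the 1 cell, and to 3567 CPM in those of WT. In NK cells they summed to 3601 CPM and 93890 CPM, the latter 2937 without the 2 cells. None of the 10 genes of B and plasma cells reached 10 UMIs over the T and NK cells, and their sum was 50.4 and 61.1 CPM in T cells against 7321 and 7600 CPM in B-lineage cells. Of 5 tested erythroid genes, 0 were past 2-fold in either direction, and the list summed to 10519 and 8400 CPM in T cells. Of 20 immediate early and dissociation genes, 6 were tested and Ier2 was past 2-fold higher (ratio 2.10, 1.09 to 4.38). A list of genes that had differed between the libraries in many classes in an earlier analysis of these data had 5 of 7 tested members past 2-fold higher (Ly6c1, Ly6a, Traf1, Cxcr6 and Apobec3), which is not independent evidence.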

How the data were processed

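Bone marrow cells were processed with 10x Genomics 3′ v2 chemistry, and each library's deposited table holds UMI counts that had not been normalized. The submitters' processing notes name Cell Ranger (version not given in the sources used here), Seurat 3.5.3 and build mm10, and no coordinates were needed. A gene listed for 1 library was set to 0 UMIs in the other for sums and is described as not listed. The members, gene lists and limits were chosen with earlier results of these data known. Counts were summed per class and library and given as CPM. Python 3.11.15, numpy 2.4.6, scipy 1.17.1, pandas 2.3.3 and scanpy 1.11.5 were used. Intervals are exact Clopper-Pearson, Newcombe, exact Poisson or exact binomial at 95% and cover counting error only. For a bound, 0 UMIs were replaced by 3 UMIs per class. A gene was called at a 2-fold ratio with at least 30 UMIs. Genes named are those of the lists with at least 10 UMIs and the 10 most extreme of each comparison. Mndal was chosen after its values were seen. Scripts were tested on simulated data. Doublets were kept, and Scrublet called 5 cells in each library, none of them T or NK cells.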

Additional observations from a re-analysis of the deposited data

How the results depend on the processing

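No paired analysis was possible because each genotype had 1 library. Of 15 alternatives, 13 were planned and 2 were chosen after seeing the data: leaving out the 3 cells rich in neutrophil RNA, and asking NK cells for an Ncr1 or Il2rb UMI. Of the alternative values of the shares and gene counts, 132 stayed within their limits and 16, all counts of genes, moved. The T and NK difference ran from 1.62 to 2.36 points and its interval stayed above 0 in 10 of 10 alternatives. The interval of the T difference was above 0 in 1 and that of the NK difference in 2. Leiden clustering put 89 of the 91 cells into 1 cluster of 93 cells. Counts of genes moved with the number of UMIs. With a sum of at least 1 UMI, 116 genes were 2-fold higher and 52 lower in Col1a1fspKO and 66 were higher in NK than in T cells. With no cell left out for Cd79a, Siglech or Csf1r, 70 were higher in NK cells. Thinned to 2500 UMIs, 34 were higher and 9 lower in Col1a1fspKO and 19 higher in T than in NK cells. From at least 15 UMIs per gene the counts were 249 higher, 143 lower, 114 in T and 79 in NK cells, and from at least 60 they were 20, 8, 14 and 13. Without the 3 cells rich in neutrophil RNA, 16 were lower in Col1a1fspKO. With a sum of at least 1 UMI the log2 ratios of Plac8 (-0.30), Ifitm6 (0.49), Lyz2 (0.37), Ltf (0.47) and Wfdc21 (0.40) reversed. Thinning reversed Cd8b1 (-0.16), and leaving out the 3 cells reversed Ifitm6 (1.17). The cause was not tested. With 8 WT NK cells, most single-gene ratios rest on few UMIs.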

Other observations

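Cells with a sum of at least 2 UMIs that were left out were 10 in Col1a1fspKO and 6 in WT. Of these, 6 and 5 were left out for Siglech, a marker of plasmacytoid dendritic cells. They held 2 to 6 UMIs of Klrd1 in Col1a1fspKO and 2 to 3 in WT, with 3 to 16 and 5 to 12 UMIs of Siglech and at least 19 and 15 UMIs of Tyrobp. None of them held a UMI of Cd3g, Cd3e, Ncr1, Gzma or Ccl5. The 3 Col1a1fspKO cells left out for Cd79a each held Cd3g or Cd3e UMIs, and the 1 WT cell held none.

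Cd3d was not restricted to the T cells. Over the whole libraries it had 709 UMIs in Col1a1fspKO and 517 in WT, of which 175 and 102 lay in the T and NK cells and 29 and 13 in cells with at least 3 Cd79a UMIs. The largest part therefore lay in other marrow cells.

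A Leiden cluster in which most cells met the choice held 4 further cells. Of these, 1 Col1a1fspKO cell had 19 Ccl5 and 3 Cd3d UMIs and none of the 5 inclusion genes, and a WT cell had 1 Cd3g, 5 Cd3d and 3 Lef1 UMIs. The others were Col1a1fspKO cells with Cd3g or Cd3e UMIs and 7 and 3 UMIs of Cd79a, the latter with 34 Ccl5 UMIs. The 2 members outside the cluster were the Col1a1fspKO NK cells with Klrd1 only.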
